A study of Homo sapiens with 2 samples.

Results

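The alpha and beta tubulins are the proteins from which microtubules are built, and 10 of their genes were followed here in SKOV3 cells with and without knockdown of the transcription factor RUNX2. They were 7 beta tubulins (TUBB, TUBB1, TUBB2A, TUBB2B, TUBB3, TUBB4B and TUBB6) and 3 alpha tubulins (TUBA1A, TUBA1B and TUBA4A). They are 10 of the 17245 genes that could be named on the arrays. Their probes were those whose RefSeq accession belongs to 1 of these genes, which gave 20 of the 41000 different probes, 14 for beta and 6 for alpha tubulins. Each of the 20 probes was printed as 1 spot per array. The study asked what RUNX2 does in epithelial ovarian cancer (EOC), and compared gene expression of a knockdown clone with that of a control clone.

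SKOV3 is a human ovarian adenocarcinoma cell line. The clone cl-sh3 (clone 3) carried a RUNX2 short hairpin RNA (shRNA) in the pLKO.1-puro vector, delivered by lentivirus. The control was a mock-transfected clone with the same vector encoding a scramble sequence, so that puromycin selection was shared by both. Each condition is 1 stable clone, and a difference between them cannot be told apart from a difference between any pair of clones. Total RNA of both clones was labelled with different dyes and put on the same 2-colour Agilent array. In hybridization 1 cl-sh3 carried Cy5 and the control Cy3, and in hybridization 2 the dyes were swapped. Both were made from 1 pair of RNAs on 1 slide and count as 1 replicate, so no test was possible and none is given. The spread between them covers labelling and array error only.

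A microtubule is a hollow tube of protofilaments in which alpha and beta tubulin alternate as heterodimers. It grows and shrinks at its ends, forms the mitotic spindle and carries transport in the cell. The beta subunit binds the taxanes used to treat ovarian carcinoma, and cells also lower tubulin mRNA when free tubulin accumulates, through a route in which TTC5 reads the nascent tubulin chain. Vertebrates express several genes (isotypes) of each subunit. Among them TUBB is class I beta tubulin, TUBB3 the class III form known from neurons, and TUBB1 the class VI form of megakaryocytes and platelets.

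Promoter sequences are shown for 5 of the genes because RUNX2 is a DNA-binding factor and the tubulin genes differed in the letters before their start. The sequences are from RefSeq on GRCh38.p14, where the 10 genes had 13 windows, each from 250 bases before a start to 50 bases after it. TUBB, TUBB3 and TUBB6 had 2 windows each, and what is shown for TUBB and TUBB6 comes from 1 of them. TUBB4B is shown because it held the probe with the highest ratio among the tubulins and 3 copies of the CCAAT box, more than any other of these genes. TUBB2A and TUBB are shown as the only one with a TATA box letter match and as the gene with the steadiest ratios. For TUBB6 and TUBB1 only the stretch around a RUNX core match is shown. Capitals mark the CCAAT box (CCAAT), the GC box (GGGCGG, read as CCGCCC on the other strand), the TATA box (TATAAA), the RUNX core (TGTGGT, read as ACCACA on the other strand) and its variant (TGCGGT, read as ACCGCA on the other strand), and each sequence runs 5′ to 3′ on the strand of its gene.
TUBB4B, chr9:137241037-137241286, plus strand: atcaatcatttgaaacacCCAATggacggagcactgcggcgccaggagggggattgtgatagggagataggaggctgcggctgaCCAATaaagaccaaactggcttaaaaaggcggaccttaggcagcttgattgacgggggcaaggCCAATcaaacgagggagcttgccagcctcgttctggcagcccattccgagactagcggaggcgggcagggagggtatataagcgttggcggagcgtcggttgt
TUBB2A, chr6:3157545-3157794, minus strand: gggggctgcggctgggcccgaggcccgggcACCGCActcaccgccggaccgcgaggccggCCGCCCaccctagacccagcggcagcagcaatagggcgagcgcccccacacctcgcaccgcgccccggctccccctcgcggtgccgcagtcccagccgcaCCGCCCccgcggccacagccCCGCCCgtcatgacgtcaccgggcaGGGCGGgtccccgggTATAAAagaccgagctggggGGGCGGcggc
TUBB, chr6:30720102-30720351, plus strand: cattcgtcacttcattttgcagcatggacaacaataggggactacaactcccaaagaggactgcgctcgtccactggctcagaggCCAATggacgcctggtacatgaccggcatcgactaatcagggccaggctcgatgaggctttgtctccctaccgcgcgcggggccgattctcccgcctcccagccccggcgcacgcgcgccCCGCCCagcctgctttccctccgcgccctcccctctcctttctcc
TUBB6, chr18:12307519-12307568, plus strand: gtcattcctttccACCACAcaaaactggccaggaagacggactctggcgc
TUBB1, chr20:59019414-59019443, plus strand: accactgcagtgACCACAgttgtgttgggc
The RUNX core TGTGGT was found in 2 of the 13 windows, 1 of TUBB1 and 1 of TUBB6, on the other strand in both. Of all 35116 windows 13.1% held it. Its first base lay 137 bases before 1 of the 2 starts of TUBB6 and 3 bases before the start of TUBB1. The variant TGCGGT stood in the 1 window of TUBB2A and in 7.29% of all windows. CCAAT was found in 6 of the genes (TUBB, TUBB2B, TUBB3, TUBB4B, TUBB6 and TUBA1A). That was 6 of the 13 windows, against 34.6% of all windows. GGGCGG was found in 8 of the genes, all but TUBB4B and TUBA1A. It stood in 9 of the 13 windows, against 45.0% of all windows. TATAAA was found for TUBB2A alone among them and in 11.5% of all windows. Only these exact letters were searched, so other spellings, such as tatataag before the start of TUBB4B, were neither marked nor counted. No binding was measured in these data, so a match describes letters only.

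Values below are log2 ratios of cl-sh3 over control after background correction and loess normalization within each array, so that 1 is a 2-fold higher level in cl-sh3. A probe was kept when the software's mark for signal well above background was given to the same RNA, cl-sh3 or control, each time. Of the 41000 probes 36060 were kept, and between 77.3% and 93.9% of spots per channel were well above background. No spot was saturated and no tubulin spot carried an outlier flag. The targeted gene was checked first. The probe A_32_P161762 of RUNX2 gave -2.04 in hybridization 1 and -1.30 in hybridization 2, which is lower in cl-sh3 in both, whereas A_24_P69267 of the same accession gave 0.17 and -0.13. A further RUNX2 probe, for another transcript, gave -0.29 and -0.17. In bulk RNA such as this, fewer cells that express a gene and less of its RNA per cell cannot be told apart.

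Tubulin mRNA was moderately higher in cl-sh3 for most of the genes, and by less than 2-fold for each probe. Of the 20 tubulin probes 18 were kept. Of these, 16 gave ratios above 0 in both hybridizations, where 29.8% of all kept probes did so. One probe, that of TUBB2B, was below 0 in both hybridizations (27.3% of all kept probes), and 1 probe of TUBB3 changed sign. The median of the 18 probes was 0.47 in hybridization 1, 0.38 in hybridization 2 and 0.45 for the mean of both, which is 1.36-fold. None of the 18 was at least 2-fold changed in both hybridizations, a rule that 0.516% of all kept probes met. In 15 of the 18 the difference between the hybridizations was smaller than the size of their mean ratio, as it was in 37.2% of all kept probes. Probes of 1 gene share its transcripts and are not independent measurements.

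**Figure D1:**
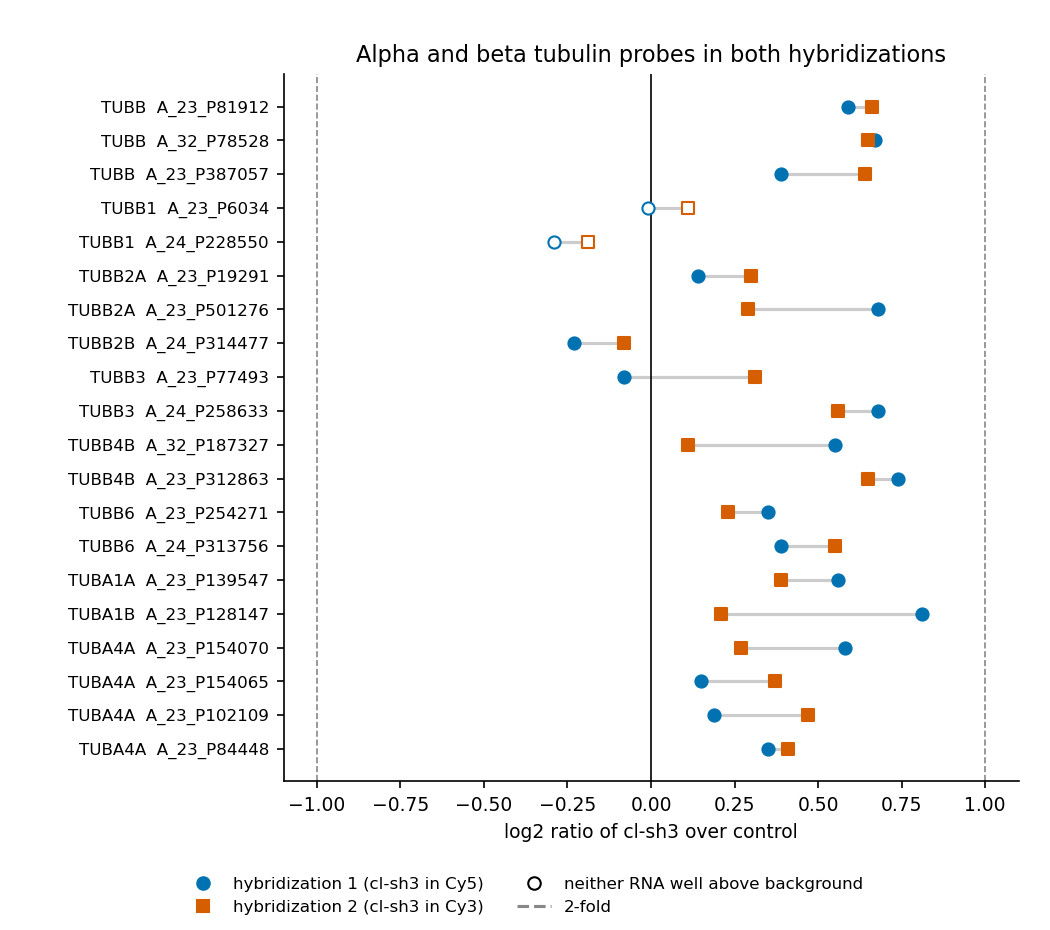
Log2 ratio of cl-sh3 over control (x axis) for each of the 20 tubulin probes (y axis), with a circle for hybridization 1, a square for hybridization 2, a line joining them and dashed lines at 2-fold. The 16 probes above 0 in both hybridizations lie between 0.11 and 0.81, TUBB2B lies below 0, and the TUBB1 probes are drawn open because their signals were not well above background.

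The class I gene TUBB, the beta tubulin expressed in nearly all cells, was higher with each of its 3 probes. A_23_P81912 gave 0.59 and 0.66 in hybridizations 1 and 2, A_32_P78528 gave 0.67 and 0.65, and A_23_P387057 gave 0.39 and 0.64. The hybridizations did not differ in direction for any of them, and the mean ratios were 1.54-fold, 1.58-fold and 1.43-fold. The unnormalized signals of A_23_P81912 were also higher for cl-sh3 within each dye, as were those of all spots together, whose medians were 902.5 for cl-sh3 and 684 for the control with Cy5 and 507.5 and 451 with Cy3. With Cy5 the signal was 33933.7 for cl-sh3 and 15133.5 for the control, and with Cy3 it was 22876.7 for cl-sh3 and 11914 for the control. The 3 probe means of TUBB spanned 0.14, the smallest span of the 6 genes with several kept probes.

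TUBB4B, the class IVb form that is also widely expressed, held the highest single mean among the tubulins. Its probe A_23_P312863 gave 0.74 and 0.65, a mean of 0.70 or 1.62-fold. Its other probe, A_32_P187327, gave 0.55 and 0.11, a mean of 0.33 or 1.26-fold, and its hybridizations differed by more than that mean. TUBB4B was thus higher with both probes, and their means lay 0.36 apart. TUBB6, the class V form, was also higher with both, at 0.35 and 0.23 for A_23_P254271 (1.22-fold) and 0.39 and 0.55 for A_24_P313756 (1.38-fold).

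TUBB2A, a class II form, gave 0.14 and 0.30 for A_23_P19291 and 0.68 and 0.29 for A_23_P501276, which are 1.16-fold and 1.40-fold. Both of its probes were above 0 in both hybridizations. Its chromosomal neighbour on chromosome 6 is TUBB2B, the other class II gene, which gave -0.23 and -0.08 with its single probe A_24_P314477, a mean of -0.16 or 1.12-fold lower. TUBB2B was the only kept tubulin probe with a negative mean. It was dim: after subtraction of the local background its signal in cl-sh3 was 243.5 in hybridization 1 and 130.5 in hybridization 2, and in the control 148 and 181, the last of which was not well above background.

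TUBB3, the class III form, was the gene whose probes differed the most. A_24_P258633 gave 0.68 and 0.56, a mean of 1.54-fold, while A_23_P77493 gave -0.08 and 0.31, a mean of 1.08-fold. The second probe changed sign between the hybridizations, so that it shows no direction, and the probe means lay 0.51 apart. Both probes carry the same RefSeq accession.

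TUBB1, the class VI form that builds the marginal band of platelets, was not kept. With both probes the signal of both clones was not well above background, whichever dye they carried, so no fold is given. Signals after background subtraction with A_23_P6034 were 121 for cl-sh3 and 61.5 for the control in hybridization 1, and 54 for cl-sh3 and 79 for the control in hybridization 2. With A_24_P228550 they were 91 and 59.5 in hybridization 1, and 51 and 96 in hybridization 2, again with cl-sh3 first. In both hybridizations the higher reading was that of the Cy5 channel, whichever clone carried it, and the normalized log2 ratios were -0.01 and 0.11 for A_23_P6034 and -0.29 and -0.19 for A_24_P228550. The 153 negative control spots had medians of 63.5 and 70.5 with Cy5 and 27.5 and 32.5 with Cy3. Of the 8 TUBB1 readings 7 lay above the 95th percentile of these spots in their own channel. Although above most control spots, TUBB1 was near background by the software's mark. A difference between the clones was not detectable on these arrays as processed here. The study itself counted TUBB1 as differentially expressed, and its rule asked for a 2-fold difference in each of the dye-swapped hybridizations. The ratios given here did not meet that rule. Ratios of TUBB1 in the authors' own table were not examined here. The study also reported a lower level in cl-sh3 by quantitative PCR, which was not analysed here.

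**Figure D2:**
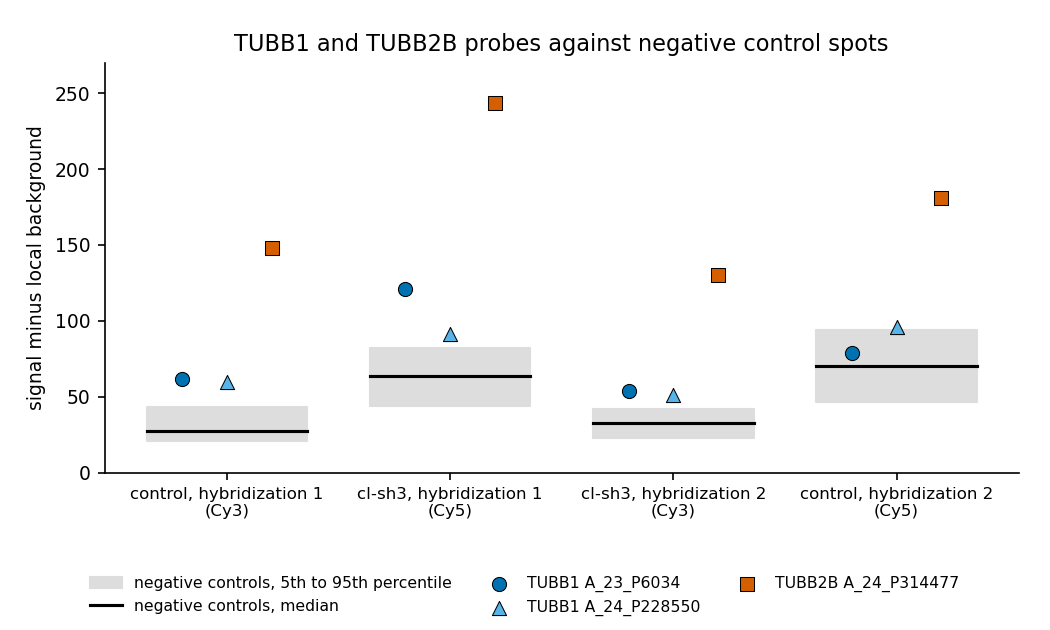
Signal minus local background (linear y axis) of the TUBB1 and TUBB2B probes in each RNA and hybridization, with grey bars for the 5th to 95th percentile of the negative control spots of that channel and a line at their median. Of the 8 TUBB1 readings 7 lie above the bars and 1 within, and TUBB2B lies above them with readings between 130.5 and 243.5.

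All 3 alpha tubulin genes were higher with each of their 6 probes in both hybridizations, with a median of 0.40 or 1.32-fold. TUBA1A, a form prominent in developing neurons, gave 0.56 and 0.39, a mean of 0.48 or 1.39-fold. TUBA1B, a ubiquitous alpha tubulin, gave 0.81 and 0.21, a mean of 0.51 or 1.43-fold. The hybridizations of TUBA1B differed by 0.60, the most of any kept tubulin probe. Its unnormalized signal was 398677 for cl-sh3 and 206074 for the control with Cy5, and 214203 for cl-sh3 and 91341.8 for the control with Cy3, again without correction for the brighter cl-sh3 channels.

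TUBA4A, an alpha tubulin that is expressed in many tissues and encoded without the usual terminal tyrosine, was measured with 4 probes. They gave 0.58 and 0.27 for A_23_P154070, 0.15 and 0.37 for A_23_P154065, 0.19 and 0.47 for A_23_P102109 and 0.35 and 0.41 for A_23_P84448. The readings of all 4 were above 0, and their means ran from 0.26 to 0.43, or from 1.20-fold to 1.35-fold. The probe means spanned 0.17, close to the span of TUBB. The beta tubulins had a median of 0.48 over 12 kept probes against 0.40 over the 6 alpha probes.

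The tubulin probes were among the brightest on the arrays, and bright probes varied more in these data. With the kept probes in 10 classes of equal size by intensity, 15 of the 18 tubulin probes lay in the brightest class, 2 in the next and TUBB2B in the second dimmest. All 4807 kept probes as bright as the tubulins other than TUBB2B had a median of 0.00, with 35.0% above 0 and 35.5% below 0 in both hybridizations. Their 75th percentile was 0.22, against 0.13 for all kept probes. The 17 tubulin probes without TUBB2B had a median of 0.47, and 16 of them were above 0 in both hybridizations. In 50.6% of those bright probes the hybridizations differed by less than the mean ratio. Tubulin genes are alike in coding sequence, and signal from 1 isotype on the probe of another was not tested, since probe sequences were not used here.

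**Figure D3:**
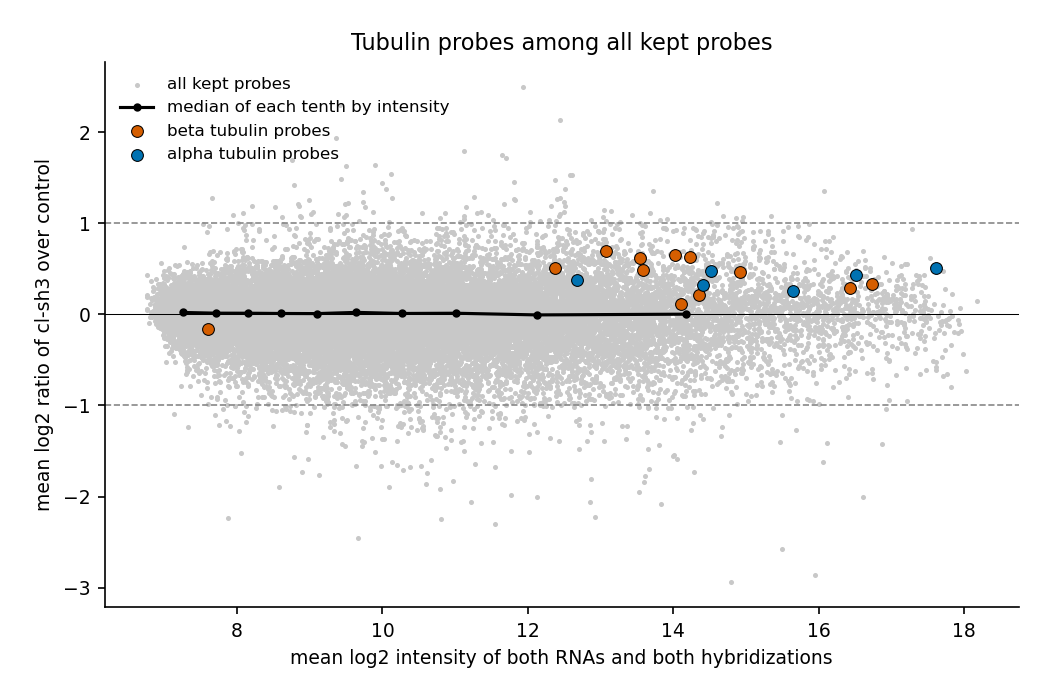
Mean log2 ratio of cl-sh3 over control (y axis) against mean log2 intensity (x axis) for all kept probes, with the kept beta and alpha tubulin probes coloured, a line through the medians of 10 classes by intensity and dashed lines at 2-fold. All but the TUBB2B probe lie on the bright side, above the median of 0.00 of equally bright probes.

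Other genes of the microtubule system were found on both sides of 0. Each gene is given here by its brightest kept probe, and over all 16158 genes 30.9% were higher in both hybridizations, 28.4% lower in both, and 0.668% at least 2-fold changed. Given in the same way, the 9 kept tubulin genes had a median of 0.33, or 0.55 in hybridization 1 and 0.27 in hybridization 2, with 7 higher and 1 lower in both. Of 93 genes in 8 lists 83 were kept, 29 of them higher and 24 lower in both hybridizations, with a median of 0.05. The 7 other alpha and beta tubulins on the arrays had a median of 0.14, with 3 higher and 1 lower in both hybridizations. That median was 0.40 with arrays centred on their medians, 0.33 with the probes of a gene averaged, and 0.30 or 0.33 with a single hybridization. Among them TUBA3D was highest at 0.68 and 0.45, although its other probe gave 0.49 and -0.31, and TUBAL3 was lowest at -0.33 and -0.04. The remaining member of the chromosome 12 cluster beside TUBA1A, TUBA1C, gave 0.54 and -0.25 with its brightest probe, but 0.55 and 0.62, 0.37 and 0.53, and 0.18 and 0.51 with its other probes. TUBA1C was named after its values were seen.

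The gamma, delta and epsilon tubulins with the gamma ring complex, which nucleates microtubules at the centrosome, had a median of 0.21, with 6 of 12 higher and 4 lower in both hybridizations, and of 0.09 or 0.08 with hybridization 1 or 2 alone. TUBGCP6, a ring component, was highest at 0.15 and 0.70. NEDD1, which anchors the ring, was lowest at -1.11 and -0.23. The 8 subunits of CCT, the chaperonin that folds new tubulin chains, had a median of -0.14, with 2 higher and 5 lower, and this median was 0.05 when arrays were centred on their medians without loess. CCT3 was highest at 0.54 and 0.45 and CCT4 lowest at -0.57 and -0.39. The tubulin folding cofactors, which join alpha to beta after CCT, had a median of 0.10, with 3 of 6 higher and 1 lower. They ran from TBCE at -0.24 and -0.14 to TBCA at 0.19 and 0.39. In hybridization 2 alone the cofactors had a median of 0.27, the same as the tubulin genes there.

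The enzymes that modify tubulin had a median of 0.00, with 5 of 18 kept genes higher and 3 lower in both hybridizations. TTLL2, among the higher, was kept through cl-sh3 alone. AGBL5 and AGTPBP1, both of which remove glutamates from tubulin, marked the ends of that list, at 0.28 and 0.55 and at -0.09 and -0.45. The other AGBL5 probes gave -0.48 and 0.25 and -0.14 and 0.25, and so show no direction. Stabilising and plus end proteins had a median of 0.06, with 6 of 18 higher and 4 lower. MAP1S, which binds along microtubules, was highest at 0.28 and 0.81, and MAPRE1, the plus end protein EB1, was lowest at -0.48 and -0.49, though its other probe had a mean of 0.09. Destabilising and severing proteins had a median of -0.02, or 0.05 with that centring, with 4 of 12 kept genes higher and 5 lower. KATNAL1, a katanin-like protein that severs microtubules, was highest at 0.52 and 0.59. STMN3, a stathmin that binds free tubulin dimers, gave -1.03 and -1.37, or 2.29-fold lower, and was the only one of the 83 genes at least 2-fold changed, a call that was lost when arrays were centred on their medians although its mean was then -1.15. The other STMN3 probes had means of -0.27 and 0.02. TTC5, of the autoregulation route, gave -0.14 and -0.05.

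**Figure D4:**
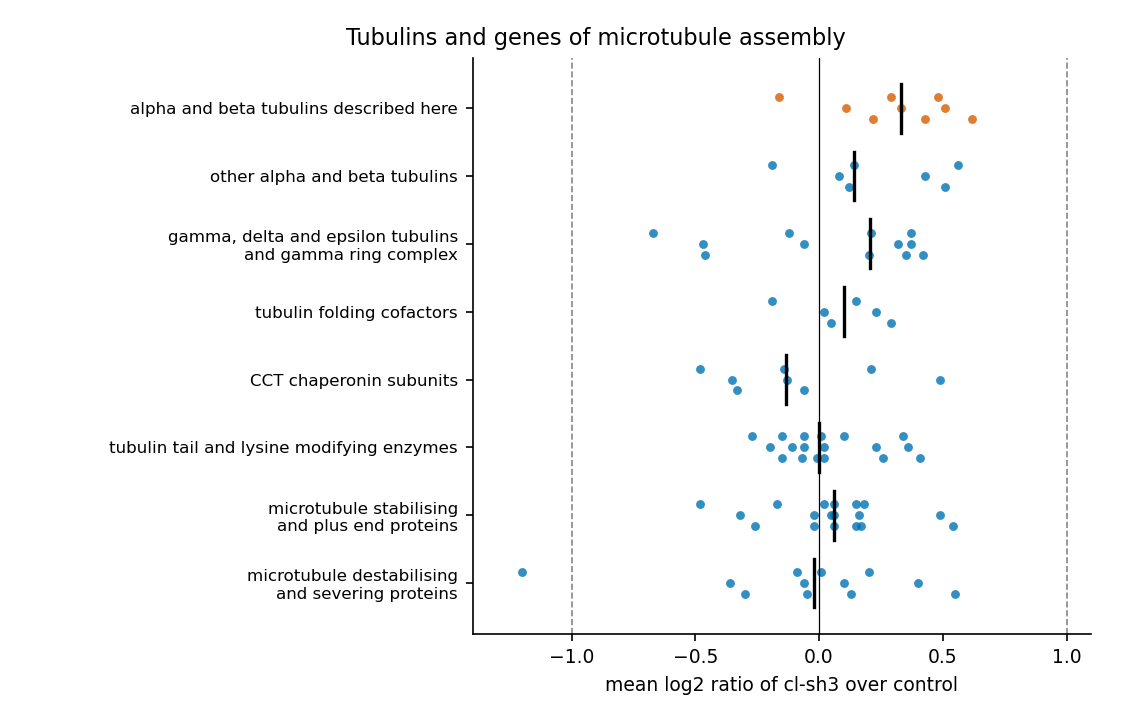
Mean log2 ratio of cl-sh3 over control for each gene of 7 lists of the microtubule system, with the 9 kept tubulin genes described above on top, a bar at each median and dashed lines at 2-fold. Each list has genes on both sides of 0, and STMN3 is the lowest point at -1.20.

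Markers of cell types that use particular tubulins were read beside them. Of 10 ovarian carcinoma and epithelial markers all were kept, as were most markers of other cell types, so detection alone does not set the cell type. The epithelial markers had a median of 0.20, with 7 higher in both hybridizations, KRT7 highest at 0.49 and 1.17, and ERBB2 lowest at -0.86 and -0.45, although its other probe gave 0.26 and 0.18. Signals after background subtraction, not normalized, were summed over these markers. With Cy5 the sum was 379473.9 in cl-sh3 and 240496 in the control, and with Cy3 250524.5 and 183149.9. Sums in this paragraph are not corrected for the brighter cl-sh3 channels. These sums were above those of the other marker lists, which hold fewer genes. Single epithelial markers ran from 106 to 108632.5. The median signal of the epithelial list lay between 11008.2 and 26100.1, and that of the other lists reached at most 1404. Of 7 megakaryocyte and platelet markers, the cells of TUBB1, all were kept, with 1 higher and 1 lower in both hybridizations and a median of 0.04. Their summed signals after background subtraction were 9117.5 in cl-sh3 and 7626 in the control with Cy5, and 5297.5 and 4723 with Cy3. NFE2, a megakaryocyte transcription factor known to act on TUBB1, gave -1.60 and -1.29 with its only probe, or 2.73-fold lower. Of 7 neuronal markers, the cells of TUBB3, 6 were kept, with 4 higher and 1 lower and a median of 0.12. Among the higher ones RBFOX3, at 0.32 and 0.03, and NEFL, at 0.09 and 0.12, were kept through cl-sh3 alone. The count of higher markers thus follows in part from the filter. The summed signals of the 6 kept neuronal markers were 6849.5 in cl-sh3 and 3541 in the control with Cy5, and 3491.5 and 3145.5 with Cy3. SNAP25 was not kept, since each RNA was well above background in only 1 hybridization. Leukocyte markers had a median of 0.09 and fibroblast markers, of which PDGFRB was not kept, of -0.12. Both RNAs came from clones of the SKOV3 cell line and not from a tissue. The markers thus describe expression within that line, not a share of other cells. Their relation to the tubulin values was not tested.

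The mean ratio of each kept tubulin probe kept its sign under the other ways of processing tried, except that of A_23_P77493 of TUBB3, which was -0.08 with hybridization 1 alone. Centring each array on its median, without loess, gave a tubulin median of 0.57, with 0.11 for the equally bright probes. Among single probes it moved TUBA1B from 0.51 to 0.77, A_32_P187327 of TUBB4B from 0.33 to 0.56 and A_23_P254271 of TUBB6 from 0.29 to 0.51. With 1 value per gene the tubulin median was 0.38, and with 1 hybridization alone it was 0.38 or 0.47. TUBB2B stayed between -0.25 and -0.07.

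**Figure D5:**
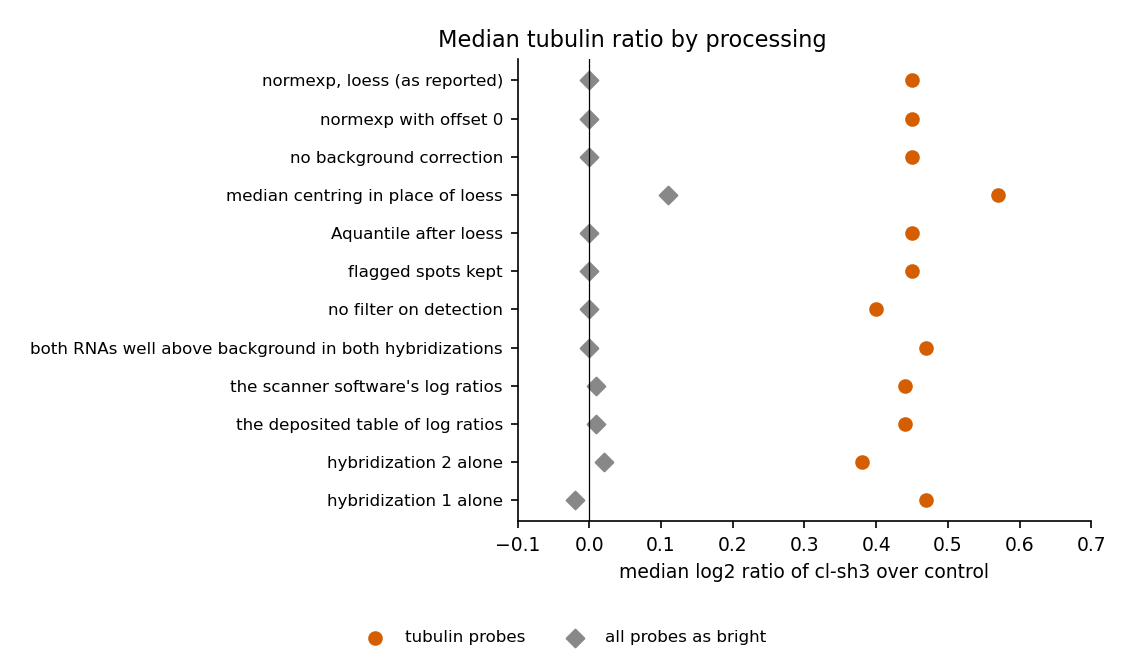
Median log2 ratio of the tubulin probes and of all probes as bright as them (x axis) under each way of processing (y axis). The tubulin medians lie between 0.38 and 0.57, and those of the bright probes between -0.02 and 0.11.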

How the data were processed

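Labelled RNA of cl-sh3 and of the control clone was measured on 2-colour arrays in 2 dye-swapped hybridizations, which were grouped by their labels and counted as 1 replicate. The authors deposited the intensity of each spot and its local background, not normalized, with flags for outliers and for signal well above background. Per the file headers they were read with Agilent Feature Extraction 10.5.1.1, while the submitters' processing notes name 8.5.1.1, and the array design was annotated on hg18. The authors also deposited log10 ratios of Cy5 over Cy3, which equal that software's log10 ratio to within 0.00245 and 0.005 and have medians of 0.0108 and 0.

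The median intensities were background-corrected by the normexp method of limma 3.58.1 (offset 50, R 4.3.3). Control spots were then dropped, outlier spots were left out, and loess was run within each array. Log2 ratios were signed so that cl-sh3 stands over control. Intensity in the brightness classes is the mean log2 intensity of both RNAs. A gene was higher or lower when both hybridizations had that sign, and changed when both passed 2-fold. No test was made, and the number of arrays limits the precision. The steps were tested on simulated data whose changes were all above 2-fold, so that test does not cover changes as small as those of the tubulins.

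Accessions were named without versions through a RefSeq table of GRCh38.p14, which with the study's supplementary gene lists named 18030 of the 19228 RefSeq accessions among 32890 accessions. The 5 motifs were searched on both strands of the promoter windows with Python 3.11.15. The members and the lists were chosen with earlier results of these data known. Named were each tubulin probe, RUNX2, and of each list the genes that changed 2-fold and the highest and lowest with 1 sign in both hybridizations. Other alternatives changed the background correction, the normalization, the filters, the source of the ratios, the hybridizations used and the 2-fold rule. Other data of the study were not analysed here.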

Additional observations from a re-analysis of the deposited data

How the results depend on the processing

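No tubulin probe was at least 2-fold changed under any of 12 alternatives, which include single hybridizations and the mean of both. Between 16 and 17 tubulin probes were higher under the 11 alternatives with that count. This was judged in both hybridizations, or in the only one used. TUBA1B, at 0.51, lay between 0.45 and 0.77 over the alternatives that used both hybridizations. The median of the tubulin probes, 0.45, was 0.57 with median centring, 0.38 with 1 value per gene, and between 0.38 and 0.47 with 1 hybridization left out. The count of all probes changed at least 2-fold, 186, was 356 with the scanner software's log ratios, 354 with the deposited table, 343 when the mean of both hybridizations had to pass, and between 415 and 594 with 1 hybridization alone. Median centring moved the split from 44 higher and 142 lower to 77 higher and 124 lower. Of the microtubule lists 1 gene was changed at least 2-fold, 0 with median centring, 0 with gene values averaged over probes, and between 1 and 2 with 1 hybridization alone. The causes were not tested. NFE2 lay between -1.60 and -1.29 and the RUNX2 probe A_32_P161762 between -2.04 and -1.30 over all alternatives, single hybridizations included. The other RUNX2 probes, with means of 0.02 and -0.23, were not followed over the alternatives. No paired analysis was possible because both hybridizations were made from 1 pair of RNAs. Signal near background limits TUBB1 and TUBB2B.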
